A study of Mus musculus with 12 samples.

Results

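The miR-183 cluster (mmu-mir-183, mmu-mir-96 and mmu-mir-182) and the miR-200 family (mmu-mir-200a, mmu-mir-200b, mmu-mir-200c, mmu-mir-141 and mmu-mir-429) were followed in mouse cortex, in both presence and absence of Toll-like receptor 4 (TLR4) and of chronic alcohol. The members were chosen by name as 8 miRNA precursors, and 7 of them have a row in the deposited table of 589 precursors. mmu-mir-429 is not analysed here, and mmu-mir-200c is listed at 0 in all 12 libraries, so that 6 members had a value above 0 in at least 1 library.

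The mice were females of the C57BL/6J background, 7 weeks old at the start and kept on drinking water (WT, TLR4-KO) or on water with 10% (v/v) ethanol (WT + EtOH, TLR4-KO + EtOH) for 5 months. According to the paper, the WT mice came from a commercial supplier and the TLR4-KO mice from another laboratory. The source of the mice and the loss of TLR4 therefore cannot be told apart. TLR4-KO is a germline loss of TLR4, a receptor of the innate immune system, and it was present in the TLR4-KO group before any alcohol was given. Each group has 3 small RNA libraries, and each library holds the pooled cortex RNA of 3 mice, so that an SD over 3 libraries is a spread between pools. The pools came from the samples with the best RNA quality in each group. A small RNA library holds no Tlr4 mRNA, so the genotype could not be checked in these data.

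A miRNA guides an Argonaute protein to mRNAs that pair with its seed, a stretch near the 5′ end, and so lowers the output of those mRNAs. The miR-183 cluster is transcribed as a single primary RNA and is best known from sensory cells, such as photoreceptors and hair cells of the inner ear, where all 3 miRNAs are abundant. The miR-200 family is known from epithelia, where it holds down the transcription factors ZEB1 and ZEB2 and with them the shift from epithelial to mesenchymal cells, and it is made from separate loci that carry related mature sequences. In the brain, members of both groups have been studied in neurons, olfactory neurogenesis and activity-dependent plasticity.

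The mature sequences show which members share a seed, and are given for the arm that is usually the more abundant one. They were taken from RefSeq (GRCm38.p6), in which all 8 names matched, and the capitals mark the seed, bases 2 to 8 from the 5′ end.
mmu-miR-183-5p: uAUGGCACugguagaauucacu
mmu-miR-96-5p: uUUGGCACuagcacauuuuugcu
mmu-miR-182-5p: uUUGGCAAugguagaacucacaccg
mmu-miR-200b-3p: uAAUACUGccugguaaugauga
mmu-miR-200c-3p: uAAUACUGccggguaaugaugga
mmu-miR-200a-3p: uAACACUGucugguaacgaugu
mmu-miR-141-3p: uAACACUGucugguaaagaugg

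The miR-200 family falls into 2 seed groups, miR-200b and miR-200c with AAUACUG and miR-200a and miR-141 with AACACUG. Counted from the 5′ end, mmu-miR-200a-3p and mmu-miR-200b-3p differ within the seed at C4U only, and have 18 of 22 bases in common. Within a seed group the mature RNAs are closer still: mmu-miR-200a-3p and mmu-miR-141-3p have 20 of 22 bases in common (C17A and U22G), and mmu-miR-200b-3p and mmu-miR-200c-3p also 20 of 22 (U11G and A22G). The 3 miRNAs of the miR-183 cluster have 3 different seeds. Over their whole length mmu-miR-183-5p and mmu-miR-182-5p are close, with 18 of 22 bases in common (A2U and C8A in the seed, U17C and U22A outside it), whereas mmu-miR-96-5p and mmu-miR-182-5p have 12 of 23. The deposited table gives 1 value per precursor and does not separate the arms, and how reads that match more than 1 member were shared out is not given in the sources used here, so that values of mmu-mir-200a and mmu-mir-141, and of mmu-mir-200b and mmu-mir-200c, are uncertain to that extent. Outside the members, RefSeq holds the seed of mmu-miR-96-5p again in mmu-miR-1271-5p and that of mmu-miR-96-3p in mmu-miR-3475-5p. Neither of these has a row in the table.

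All members lie on the minus strand (GRCm38, GENCODE M21 for the genes around them). The miR-183 cluster spans 3820 bp at chr6:30165918-30169737, with no other annotated gene over any of its hairpins. The hairpins of mmu-mir-183 and mmu-mir-96 are 116 bases apart, and mmu-mir-182 follows 3453 bases after mmu-mir-96. mmu-mir-200b, mmu-mir-200a and mmu-mir-429 lie within 1846 bp at chr4:156053905-156055750, inside the gene Ttll10, a tubulin polyglycylase, and inside the non-coding gene Gm13648, in both on the same strand. The hairpins of mmu-mir-200b and mmu-mir-200a are intronic in both, and that of mmu-mir-429 overlaps an exon of Gm13648. mmu-mir-200c and mmu-mir-141 sit within 477 bp at chr6:124717914-124718390, 336 bases apart, in the gene Gm15884, which is annotated as antisense RNA and has no exon over them, and the mmu-mir-141 hairpin overlaps an exon of Gm29008, a tentative gene model on the same strand. The miR-183 cluster and the miR-200c locus are thus on the same chromosome but far apart, and the miR-200b locus is on another.

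The authors' values are normalized and scaled, start at 0, share 1 highest value over all libraries and are not counts. Above 0 the values take 386 distinct levels, many of which recur between libraries, so a difference can reflect a shift of rank within a library. They hold no depth, so that the depth behind a single value is not known from them, and differences are given in units of this scale, not as fold changes. Between 216 and 270 precursors were above 0 in a library (260 to 270 in WT, 216 to 262 in TLR4-KO, 229 to 270 in WT + EtOH and 236 to 262 in TLR4-KO + EtOH). 324 were above 0 in at least 1 library and 190 in all 12. Over these 190 the Pearson correlation between libraries ran from 0.911 to 0.991, and no 2 libraries were identical. The lowest value above 0 differed between libraries, from 1.25 in WT replicate 1 to 14.1 in TLR4-KO replicate 3. A low value therefore does not mark the same place in every library. A 0 in such a table can stand for few reads as well as for none, so members are described as listed at 0, and a value of 0 is not read as absence.

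mmu-mir-182 was the most highly ranked member. Its value was 90.3, 109 and 108 in the 3 WT libraries, 64.6, 71.5 and 62.0 in TLR4-KO, 91.7, 75.6 and 48.6 in WT + EtOH, and 81.6, 72.7 and 72.7 in TLR4-KO + EtOH. All TLR4-KO and TLR4-KO + EtOH libraries were below the lowest WT library, whereas WT + EtOH replicate 1 was inside the WT range and WT + EtOH replicate 3 was the lowest of all 12. The means were 102 ± 10.6 in WT, 75.7 ± 5.11 in TLR4-KO + EtOH, 72.0 ± 21.7 in WT + EtOH and 66.0 ± 4.92 in TLR4-KO (SD, n = 3). In that order, WT stood above TLR4-KO + EtOH without overlap, and the ranges of TLR4-KO + EtOH and WT + EtOH, and of WT + EtOH and TLR4-KO, overlapped. By rank within the library, mmu-mir-182 was at 22, 7 and 8 in WT, at 58, 49 and 63 in TLR4-KO, at 20, 44 and 96 in WT + EtOH and at 34, 48 and 48 in TLR4-KO + EtOH.

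mmu-mir-183, the first hairpin of the cluster, gave the same order of groups at a lower level. Its value was 74.8, 87.7 and 82.4 in WT, 50.2, 56.1 and 45.6 in TLR4-KO, 78.0, 65.6 and 33.4 in WT + EtOH, and 59.7, 60.2 and 58.6 in TLR4-KO + EtOH. Again WT + EtOH replicate 1 lay within the WT range, WT + EtOH replicate 3 was the lowest library, and every library of the TLR4-KO groups was below every WT library. The means were 81.7 ± 6.47 in WT, 59.5 ± 0.839 in TLR4-KO + EtOH, 59.0 ± 23.0 in WT + EtOH and 50.6 ± 5.30 in TLR4-KO (SD, n = 3). The SD in WT + EtOH was thus larger than that of the other groups for both miRNAs, and it rested on the distance between replicates 1 and 3.

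mmu-mir-96, the middle hairpin, was near the bottom of the detected range. It was 12.1, 15.3 and 23.7 in the WT libraries, and was listed at 0 in the other 9. Another table of the study, not used here, has it above 0 in some libraries of the TLR4-KO groups, so its zeros there, and each difference that rests on them, are uncertain. Within the WT libraries it ranked 216 of 270, 208 of 260 and 179 of 260 precursors above 0, so that 18.5%, 19.2% and 31.2% of the detected precursors had a lower value. In WT replicates 1 and 2, 4 and 2 other precursors had exactly the same value as mmu-mir-96, as values repeat in steps at this low end of the scale. Only 1 other precursor, mmu-mir-6952, was above 0 in all 3 WT libraries and listed at 0 in the other 9, with values of 4.20, 4.23 and 5.23. The same pattern was met by 1 precursor for TLR4-KO + EtOH and by 0 for each of the other groups.

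**Figure D1:**
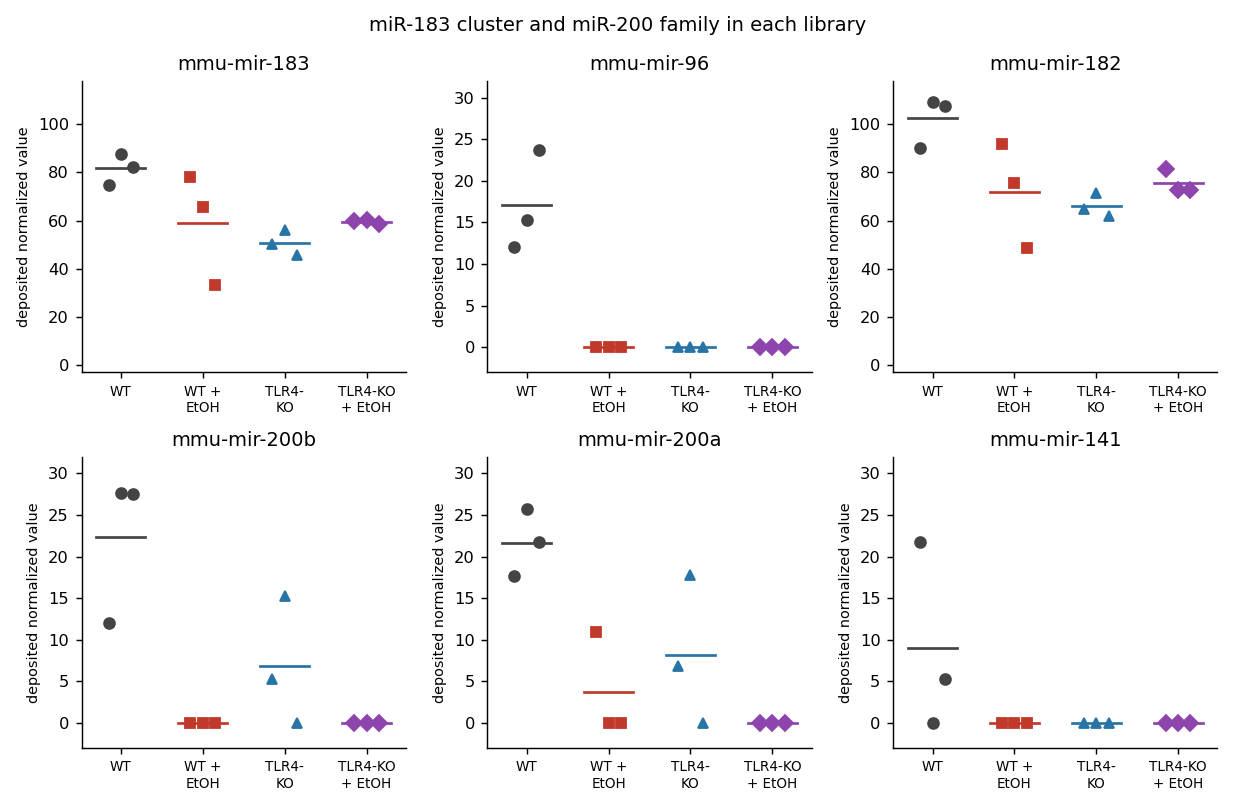
Deposited normalized value (vertical axis, no unit) of the 6 members that were above 0 in at least 1 library, in each of the 12 libraries by group. Symbols are libraries (replicates 1 to 3 from left to right) and lines are group means. mmu-mir-182 and mmu-mir-183 have an axis of their own, and all 9 libraries outside WT are at 0 for mmu-mir-96.

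mmu-mir-200b, the first hairpin of its locus, was 12.1, 27.7 and 27.5 in WT and listed at 0 in all 3 WT + EtOH libraries. It was 5.23, 15.3 and 0 in TLR4-KO, and listed at 0 in all 3 TLR4-KO + EtOH libraries. TLR4-KO replicate 2 was above WT replicate 1, so that WT and TLR4-KO overlapped in value, whereas both alcohol groups were below WT. The lowest value above 0 was 11.3 in TLR4-KO replicate 2 and 1.25 in WT replicate 1. In these libraries 6.99% and 18.5% of the detected precursors were below mmu-mir-200b, so the overlap did not hold by place within the library. mmu-mir-200a, which lies 695 bases downstream, was 17.6, 25.7 and 21.7 in WT, and 11.0, 0 and 0 in WT + EtOH. In TLR4-KO it was 6.87, 17.8 and 0, and in TLR4-KO + EtOH it was listed at 0 in all 3 libraries. Its 17.8 in TLR4-KO replicate 2 and its 17.6 in WT replicate 1 had 10.9% and 24.4% of the detected precursors below them. Both miRNAs of this locus were thus above 0 in TLR4-KO replicates 1 and 2 and at 0 in TLR4-KO replicate 3, and WT + EtOH replicate 1 had mmu-mir-200a but not mmu-mir-200b.

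mmu-mir-141, which has the seed of mmu-mir-200a but comes from the other locus, was above 0 in WT replicates 1 (21.7) and 3 (5.23) and listed at 0 in the other 10 libraries. It was 1 of 10 precursors that were above 0 in at least 1 WT library and in no other group. The corresponding number was 8 for either TLR4-KO group and 6 for WT + EtOH. mmu-mir-200c, its neighbour 336 bases upstream, was listed at 0 throughout. By the mean over all 12 libraries the members ranked 38 (mmu-mir-182), 60 (mmu-mir-183), 224 (mmu-mir-200a), 228 (mmu-mir-200b), 261 (mmu-mir-96) and 284 (mmu-mir-141) among the 324 precursors above 0 in any library.

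mmu-mir-182 and mmu-mir-183 had the highest spread of the 190 precursors that were above 0 in all libraries. Their SDs over the 12 libraries were 18.1 and 15.9. The next precursor, mmu-mir-2137, had 10.8, and the median of the 190 was 4.51. Precursors that are at 0 in some libraries spread more on this scale, and among all 324 the SDs of mmu-mir-200b (10.8), mmu-mir-200a (9.91), mmu-mir-96 (8.12) and mmu-mir-141 (6.31) ranked 6, 14, 47 and 103. The abundant pair of the miR-183 cluster stood apart from precursors of a similar level, and the low members lay along the edge that precursors with many 0 values form.

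**Figure D2:**
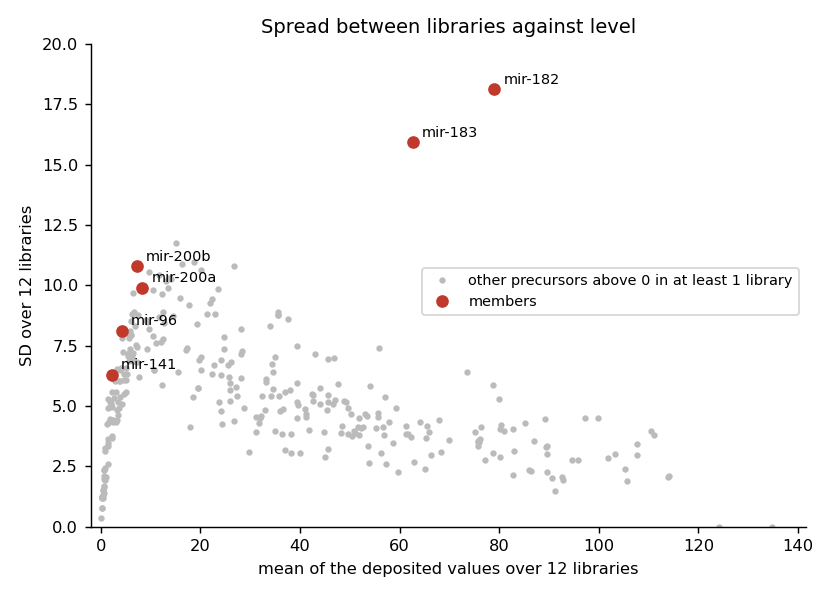
SD over the 12 libraries (vertical axis) against the mean over the 12 libraries (horizontal axis), both in units of the deposited scale, for the 324 precursors above 0 in at least 1 library. The 6 members are marked, and mmu-mir-182 (SD 18.1) and mmu-mir-183 (SD 15.9) lie above all other precursors.

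The first comparison asked which miRNAs differ after chronic alcohol in mice with TLR4. Of the 7 members, 6 had a lower mean in WT + EtOH than in WT and mmu-mir-200c was at 0 in both. mmu-mir-96 and mmu-mir-141 are above 0 in WT libraries only, so that they could not have been higher in another group. With limma over all 12 libraries and Benjamini-Hochberg adjustment over 589 precursors, mmu-mir-96 was called (difference -17.0, SE 2.41, adjusted p = 0.0128) and the other members were not. The test called 1.7% of all precursors in either direction and 0.679% as lower, against 1 of 7 members. Of the 589 precursors, only the 324 above 0 in at least 1 library could be called, and of the 7 members only 6. Shares over 589, here and below, are therefore lower than shares over those 324 would be. The study singled out miR-200a, miR-200b and the whole miR-183 cluster from these libraries, so the count of members is not independent evidence of their direction. These are bulk samples, in which fewer cells of a type and less RNA per cell cannot be told apart.

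mmu-mir-182 was lower in WT + EtOH by 30.5 on average (difference -30.5, 95% interval -53.6 to -7.39), the most negative difference of the 324 precursors, with an adjusted p of 0.227 in limma. The difference of mmu-mir-183, -22.7 (SE 9.82), ranked next and had an adjusted p of 0.387 in limma. Those of mmu-mir-200b (-22.4, SE 4.75, limma adjusted p = 0.0616), mmu-mir-200a (-18.0, SE 4.68, limma adjusted p = 0.12) and mmu-mir-96 followed at ranks 3 to 5, and mmu-mir-141 was at rank 28 (-8.97, limma adjusted p = 0.524). The median difference of the 7 members was -18.0 and that of the 589 precursors 0. At an unadjusted p under 0.05, 5 of 7 members were lower, against 38 precursors (6.45% of the 589, of which 324 were above 0). WT and WT + EtOH did not overlap for mmu-mir-96, mmu-mir-200a and mmu-mir-200b, against 17.3% of the 324 precursors that were lower without overlap, and the two-sided exact permutation p of each was 0.1, the smallest that 3 against 3 libraries allow.

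The differences of mmu-mir-182 and mmu-mir-183 depended on WT + EtOH replicate 3. Without that library they were -18.8 (limma adjusted p = 0.314) and -9.87 (limma adjusted p = 0.489). The SE of mmu-mir-96 rests on the WT libraries alone, since the other 9 values are all 0. In a fit of WT and WT + EtOH alone its limma adjusted p was 0.143, and with values under 10 raised to 10 the difference was -7.03 (limma adjusted p = 0.287); over the alternatives other than leaving out a library the adjusted p ran from 0.0078 to 0.287. WT + EtOH replicate 1 had 270 precursors above 0, as many as the WT library with the most, and listed mmu-mir-96 and mmu-mir-200b at 0. The part of detection in these zeros was not tested.

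The second comparison addressed the genotype, together with the source of the mice, in mice without alcohol. mmu-mir-182, mmu-mir-183, mmu-mir-200a and mmu-mir-200b were lower on average in TLR4-KO than in WT, as were mmu-mir-96 and mmu-mir-141, which are above 0 in WT only. limma called mmu-mir-96 (difference -17.0, SE 2.41, adjusted p = 0.00948), 1 of 7 members, against 2.55% of all precursors called in either direction and 1.02% called as lower. mmu-mir-182 and mmu-mir-183 again had the most negative differences of the 324 precursors, -36.5 (limma adjusted p = 0.131) and -31.0 (limma adjusted p = 0.17). All 3 miRNAs of the miR-183 cluster were lower in TLR4-KO without overlap with WT, against 15.4% of the 324 precursors. mmu-mir-200b (-15.6, limma adjusted p = 0.163), mmu-mir-200a (-13.4, limma adjusted p = 0.23) and mmu-mir-141 (-8.97, limma adjusted p = 0.519) overlapped with WT. For mmu-mir-200b and mmu-mir-200a the overlap rested on TLR4-KO replicate 2, where the lowest value above 0 was 11.3. Of 7 members, 5 were lower at an unadjusted p under 0.05, against 6.28% of all precursors, and the median difference of the 7 members was -15.6 beside 0 for all.

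Here too WT + EtOH replicate 3 decided calls, although it belongs to neither group, since the fit takes its estimate of the spread from all 4 groups. Without it limma called 3 members, mmu-mir-96, mmu-mir-182 (adjusted p = 0.024) and mmu-mir-183 (adjusted p = 0.0145), and without WT replicate 1 it called mmu-mir-96 and mmu-mir-200b. Over all precursors these fits called 20 and 13, against 15 in the main fit. The call of mmu-mir-96 was lost in a fit of the 2 groups alone (limma adjusted p = 0.119) and with values under 10 raised to 10 (limma adjusted p = 0.238), with a range of 0.00478 to 0.238 over the alternatives other than leaving out a library.

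Mice with both TLR4 loss and alcohol were set against the same WT libraries, which the 3 comparisons with WT have in common, so that these are not independent of each other. In TLR4-KO + EtOH, mmu-mir-96, mmu-mir-200a, mmu-mir-200b and mmu-mir-141 were listed at 0 in every library, and mmu-mir-182 and mmu-mir-183 were below every WT library. limma called mmu-mir-96 (difference -17.0, adjusted p = 0.00733), 1 of 7 members against 1.87% of all precursors in either direction and 0.849% as lower. The adjusted p was 0.0616 for mmu-mir-200b (-22.4), 0.0645 for mmu-mir-200a (-21.7), 0.335 for mmu-mir-182 (-26.8), 0.475 for mmu-mir-183 (-22.2) and 0.577 for mmu-mir-141 (-8.97), all in limma. Of the 6 members, 5 were lower without overlap, all but mmu-mir-141, against 15.4% of the 324 precursors, and 4 of 7 were lower at an unadjusted p under 0.05, against 5.09%. The call of mmu-mir-96 was again lost with WT and TLR4-KO + EtOH fitted alone (limma adjusted p = 0.113), where mmu-mir-200a was called in its place (limma adjusted p = 0.0229, 0.0229 to 0.0827 over the same kind of alternatives), and with values under 10 raised to 10 (limma adjusted p = 0.311), within a range of 0.00445 to 0.311 over the alternatives other than leaving out a library. Leaving out a library raised the count to 2 without WT replicate 1 (with mmu-mir-200b), without WT + EtOH replicate 3 (with mmu-mir-183) or without TLR4-KO replicate 3 (with mmu-mir-200a), and to 3 without TLR4-KO replicate 2 (with both mmu-mir-200a and mmu-mir-200b). Over all precursors these fits called 11, 17, 10 and 11 in the same order, against 11 in the main fit.

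**Figure D3:**
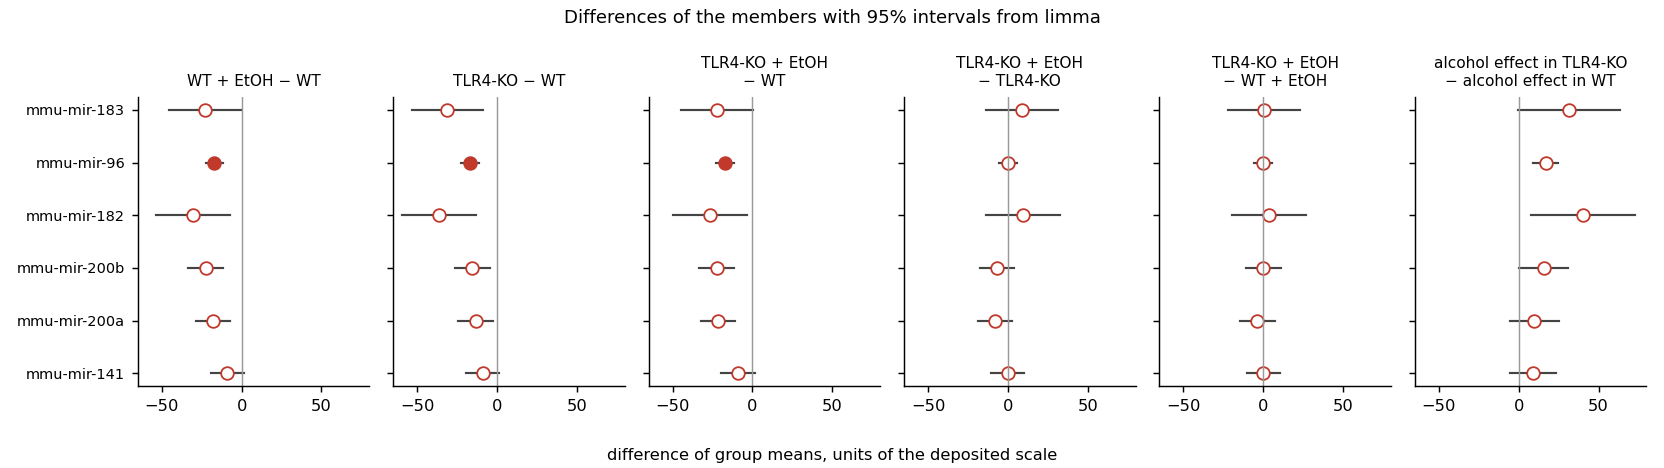
Difference of group means (horizontal axis, units of the deposited scale) with 95% intervals from limma for the 6 members, in 5 comparisons of groups and, at the right, the difference between the alcohol effects in TLR4-KO and in WT. Filled points have an adjusted p under 0.05 and open points do not: mmu-mir-96 is filled in the 3 comparisons with WT, at -17.0 in each.

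Within TLR4-KO mice, alcohol was not followed by a call in any member, against 0.34% of all precursors called. mmu-mir-182 was 9.65 higher in TLR4-KO + EtOH than in TLR4-KO (95% interval -13.5 to 32.8) and mmu-mir-183 was 8.87 higher (95% interval -13.6 to 31.4), both with an adjusted p of 1 in limma. The libraries of these groups did not overlap for either miRNA, and the exact permutation p was 0.1 for both. Of all 324 precursors 7.1% were higher without overlap. mmu-mir-200a was lower by 8.21 (difference -8.21, 95% interval -18.9 to 2.51) and mmu-mir-200b by 6.84 (difference -6.84, 95% interval -17.7 to 4.04), with limma adjusted p of 0.969 and 1. mmu-mir-96 and mmu-mir-141 were at 0 in both groups. Without TLR4-KO replicate 2 the differences of mmu-mir-200a and mmu-mir-200b were -3.43 and -2.61. No member had an unadjusted p under 0.05, against 6.96% of all precursors.

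Between the alcohol-treated groups of both genotypes no member was called, against 0.509% of all precursors, and none had an unadjusted p under 0.05, against 4.58%. The difference TLR4-KO + EtOH minus WT + EtOH was 3.70 for mmu-mir-182 (95% interval -19.4 to 26.8) and 0.507 for mmu-mir-183 (95% interval -22.0 to 23.0). Both turned to the other side without WT + EtOH replicate 3, to -7.96 and -12.3. mmu-mir-200a differed by -3.65 (95% interval -14.4 to 7.07), which rested on WT + EtOH replicate 1, the only library of these groups above 0. The intervals of mmu-mir-182 and mmu-mir-183 are wide, so that equal levels were not shown.

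The design also allows the alcohol effects in both genotypes to be compared, as the difference in TLR4-KO less the difference in WT. This value was positive for 6 of 7 members and 0 for mmu-mir-200c. Its median was 15.6 over the 7 and 0 over the 589 precursors, or 16.3 and 0.335 over the 6 members and 324 precursors above 0. The value was 40.2 for mmu-mir-182 (SE 14.3, limma adjusted p = 0.315), 31.5 for mmu-mir-183 (SE 13.9, adjusted p = 0.394) and 17.0 for mmu-mir-96 (SE 3.41, adjusted p = 0.0553). mmu-mir-182 and mmu-mir-183 had the most positive values of the 324 precursors. It was 15.6 for mmu-mir-200b (adjusted p = 0.382), 9.79 for mmu-mir-200a (adjusted p = 0.827) and 8.97 for mmu-mir-141 (adjusted p = 0.875). No member was called in limma, against 1.19% of all precursors, and 3 of 7 were higher at an unadjusted p under 0.05, against 6.79%. For mmu-mir-96 and mmu-mir-141, which are at 0 in both TLR4-KO groups, the value is the WT + EtOH difference with its sign turned. Without WT replicate 1 or WT replicate 3, mmu-mir-96 was called (limma adjusted p = 0.0161 and 0.000743, within 0.000743 to 0.126 over the libraries left out), and without WT + EtOH replicate 3 the value of mmu-mir-183 was 18.7.

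The hairpins of a common primary RNA moved together to different degrees. mmu-mir-182 and mmu-mir-183 had a Pearson r of 0.975 over the 12 libraries, and of 0.954 once the group means were subtracted. Both placed the pools in the same order within WT, TLR4-KO and WT + EtOH, where replicate 1 was highest and replicate 3 lowest for both. Within TLR4-KO + EtOH the order differed, with mmu-mir-182 highest in replicate 1 and mmu-mir-183 highest in replicate 2. The within-group r rests mostly on WT + EtOH, the group with the largest SD for both (21.7 for mmu-mir-182 and 23.0 for mmu-mir-183). These points share libraries and their normalization, and are given as a description. The value of mmu-mir-182 was above that of mmu-mir-183 in all libraries, by 9.98 to 25.4. The mean distance was 20.8 ± 4.99 in WT, 15.4 ± 0.989 in TLR4-KO, 13.0 ± 2.72 in WT + EtOH and 16.2 ± 4.95 in TLR4-KO + EtOH (SD, n = 3), on a scale whose correction for length is not given in the sources used here.

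**Figure D4:**
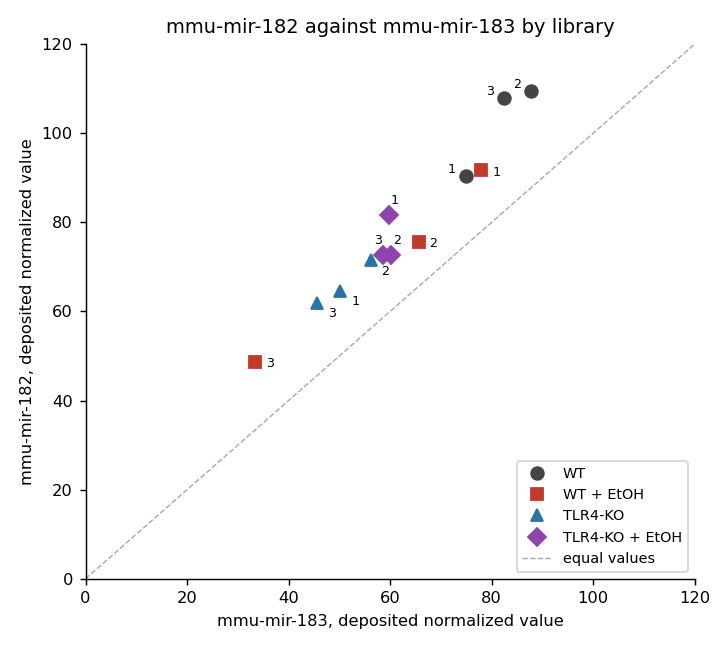
Deposited normalized value of mmu-mir-182 (vertical axis) against that of mmu-mir-183 (horizontal axis) in the 12 libraries, with replicate numbers and a dashed line of equal values. All points lie above the line, by 9.98 to 25.4, and WT + EtOH replicates 1 and 3 lie at opposite ends of the range.

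mmu-mir-96, from between these hairpins, had an r of 0.793 with mmu-mir-182 and of 0.702 with mmu-mir-183, but of 0.278 and 0.0974 within groups. Within groups its value varies in WT only, so the within-group figure rests on 3 libraries. In the miR-200b locus, mmu-mir-200a and mmu-mir-200b had an r of 0.926, and of 0.730 within groups. Across loci, mmu-mir-96 and mmu-mir-200b had an r of 0.878 (0.536 within groups) and mmu-mir-182 and mmu-mir-200a one of 0.763 (0.646 within groups). mmu-mir-141 had r between 0.278 and 0.481 with the other members and, within groups, between -0.737 and -0.259. WT replicate 1, its highest library, was the lowest WT library of each of the 5 others.

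**Figure D5:**
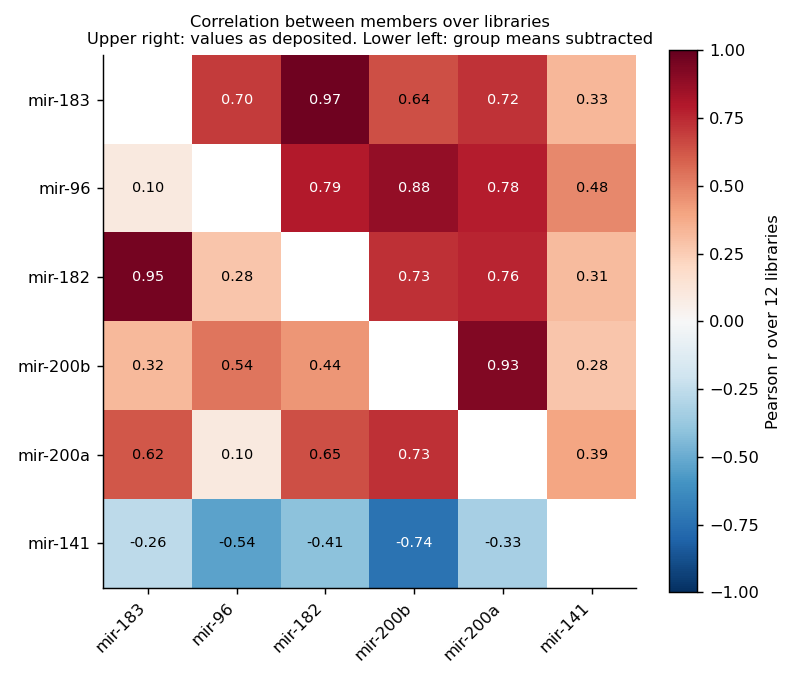
Pearson r over the 12 libraries between the 6 members above 0, from the deposited values (upper right) and after subtraction of the group means (lower left), with the colour scale from -1 to 1. The pair mmu-mir-182 and mmu-mir-183 is high in both (0.975 and 0.954), and mmu-mir-141 is negative with all others at the lower left.

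The mean of the 5 members above 0 in at least 3 libraries gave a profile of 41.4, 53.1 and 52.6 in WT, 25.4, 32.1 and 21.5 in TLR4-KO, 36.1, 28.2 and 16.4 in WT + EtOH, and 28.3, 26.6 and 26.3 in TLR4-KO + EtOH. mmu-mir-96 and mmu-mir-200b enter it only because of the WT libraries, where they are high. The high WT level of the profile is thus in part set by that choice. Each r with the profile, and the order of precursors by it, is therefore a description only. Among 245 other precursors above 0 in at least 6 libraries, the median r with this profile was 0.00671. The 5 most similar were mmu-mir-451a and mmu-mir-451b (r = 0.745), mmu-mir-143 (r = 0.650), mmu-mir-30b (r = 0.612) and mmu-mir-9-3 (r = 0.603), and none reached the r of 0.975 between mmu-mir-182 and mmu-mir-183. mmu-mir-451a and mmu-mir-451b are annotated on both strands of 1 locus, and their values are identical, so their reads were not told apart. miR-451a is known from red blood cells, miR-143 from smooth muscle of vessels and miR-9 from neural cells. All 5 had a negative r with the profile within groups, from -0.319 to -0.175, so that their likeness lay in the group means.

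mmu-mir-451a was 48.9 ± 2.28 in WT, 31.3 ± 4.32 in TLR4-KO, 34.3 ± 2.33 in WT + EtOH and 28.1 ± 3.70 in TLR4-KO + EtOH (SD, n = 3). mmu-mir-143 was 84.0 ± 0.987, 79.5 ± 2.38, 77.6 ± 1.45 and 79.8 ± 1.91 in the same order, a range of group means far narrower than that of mmu-mir-182. At the other end, and named after their values were seen, were the precursors most opposite to the profile, mmu-mir-128-1 (r = -0.943), mmu-mir-351 (r = -0.904) and mmu-mir-125b-2 (r = -0.886). miR-128 is enriched in neurons, as is miR-9, whose precursor mmu-mir-9-3 was lower outside WT (93.9 ± 0.617 in WT and 88.0 ± 2.56, 88.8 ± 1.95 and 87.5 ± 3.30 in TLR4-KO, WT + EtOH and TLR4-KO + EtOH). mmu-mir-128-1 was 61.4 ± 3.78 in WT and 69.6 ± 1.91, 70.7 ± 2.02 and 69.7 ± 0.954 in TLR4-KO, WT + EtOH and TLR4-KO + EtOH (SD, n = 3), and its r with the profile was -0.776 within groups.

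Marker miRNAs of cell types that a cortex sample could hold were set beside these values. Neuron-enriched miRNAs (12 in the table, 11 above 0 in every library) had summed values of 702 to 707 in WT, 662 to 729 in TLR4-KO, 706 to 716 in WT + EtOH and 699 to 726 in TLR4-KO + EtOH. No other brain region or tissue was measured, so these sums do not test the cortex label. Of the markers of choroid plexus and ciliated epithelium, 4 of 6 were above 0 anywhere, with sums of 144 to 149, 142 to 177, 146 to 150 and 142 to 161 in the same order. Within this list mmu-mir-204 (79.9 to 93.7) and mmu-mir-34c (39.1 to 53.6) were above 0 in every library. mmu-mir-449a and mmu-mir-449c, known from multiciliated cells, were listed at 0 in all libraries. Presence of these cell types was thus not excluded. Of the epithelial and neuroendocrine list 6 of 7 were above 0 anywhere, with sums of 112 to 129, 106 to 151, 85.0 to 131 and 104 to 138, and mmu-mir-203, a miRNA of skin, was at 0. limma called none of the markers in these 3 lists in any of the 6 comparisons. At an unadjusted p under 0.05, 3 neuronal precursors were lower and 1 was higher in each comparison with WT. For TLR4-KO and for WT + EtOH, the lower ones were mmu-mir-9-1, mmu-mir-9-2 and mmu-mir-9-3. These are precursors of 1 miRNA, miR-9, and the higher one was mmu-mir-128-1. Of all precursors, 6.45%, 6.28% and 5.09% were lower against WT by this measure (WT + EtOH, TLR4-KO, TLR4-KO + EtOH). Also against WT, 1 miRNA of the choroid plexus list was higher in TLR4-KO, and 1 of the epithelial list was higher in TLR4-KO + EtOH. Oligodendrocyte markers (4, all above 0 in some library) had sums of 70.1 to 76.6 in WT, 49.6 to 71.8 in TLR4-KO, 66.7 to 89.4 in WT + EtOH and 64.6 to 83.5 in TLR4-KO + EtOH, with no call in limma and none at an unadjusted p under 0.05 against WT. On that epithelial list, and named after its values were seen, mmu-mir-375, a neuroendocrine miRNA, was 14.7, 8.17 and 5.23 in WT and 0 elsewhere but for 18.1 in TLR4-KO + EtOH replicate 2 (WT + EtOH minus WT -9.38, limma adjusted p = 0.518). In WT + EtOH minus WT the median of the list was -3.67. There mmu-mir-7a-1 (-3.55), mmu-mir-7a-2 (-4.65) and mmu-mir-7b (-3.79) were lower too, and only mmu-mir-31 was higher (3.90). In TLR4-KO minus WT mmu-mir-375 was again lower (-9.38) and mmu-mir-31 higher (8.16, limma adjusted p = 0.48), with a list median of 0.955.

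Markers of red blood cells moved with the members in part. All 5 of their list were above 0, with sums of 287 to 306 in WT, 258 to 278 in TLR4-KO, 278 to 281 in WT + EtOH and 244 to 273 in TLR4-KO + EtOH. Of these, limma called mmu-mir-451a and the indistinguishable mmu-mir-451b as lower in the 3 comparisons with WT (TLR4-KO -17.6, adjusted p = 0.00948; WT + EtOH -14.6, adjusted p = 0.0346; TLR4-KO + EtOH -20.9, adjusted p = 0.00364), whereas mmu-mir-144, made from the same primary RNA as mmu-mir-451a, and the mmu-mir-486 precursors were not called. mmu-mir-486b differed in the opposite direction in the same comparisons (8.76, 8.19 and 6.18, each with an unadjusted p under 0.05, limma adjusted p = 0.139, 0.196 and 0.414). The part of blood in the values of the members was not tested. The number of detected precursors also moved with the members: the profile had an r of 0.557 with the number of other precursors above 0 over the 12 libraries, and of 0.382 within groups. That number was also tried as a covariate, an alternative added with the data in view. limma then called mmu-mir-96 in the comparisons of WT + EtOH (adjusted p = 0.00883), TLR4-KO (adjusted p = 0.00927) and TLR4-KO + EtOH (adjusted p = 0.0086) with WT, and the differences of mmu-mir-182 were -25.2, -28.0 and -23.0. Over all precursors it called 58, 65 and 48 in these comparisons, against 10, 15 and 11 without the covariate.

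Of 10 precursors of miRNAs known to respond to TLR4 or NF-kB signalling, all were above 0 in some library, with sums of 691 to 708 in WT, 644 to 685 in TLR4-KO, 641 to 687 in WT + EtOH and 678 to 683 in TLR4-KO + EtOH. mmu-mir-132 and the mmu-mir-9 precursors are on this list and on the neuronal one. The median difference of the 10 precursors from WT was -5.70 in TLR4-KO, -4.94 in WT + EtOH and -2.77 in TLR4-KO + EtOH. At an unadjusted limma p under 0.05, 5, 3 and 3 of them were lower in these comparisons and 1 was higher in each. Of all precursors, 6.28%, 6.45% and 5.09% were lower by the same measure. In TLR4-KO and WT + EtOH, mmu-mir-9-1, mmu-mir-9-2 and mmu-mir-9-3 were among the lower ones. These are precursors of the same miRNA, miR-9, so the counts and medians are not of independent miRNAs. After adjustment limma called mmu-mir-125b-2 of this list, as higher in all 3.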

How the data were processed

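Small RNA of the cortex was sequenced on an Illumina platform (TruSeq small RNA kit), with 3 pooled libraries in each of 4 groups. According to the study's methods and the submitters' processing notes, the authors checked reads with FastQC 0.11.6, trimmed them with Cutadapt, mapped them with Bowtie2 2.2.5 and TopHat (GRCm38), removed poor alignments, counted reads per precursor and normalized the counts by the TMM method. The deposited values are a normalized score for each of 589 precursors in each of 12 libraries. They are not whole, have the same highest value in every library and keep 0 at 0, and how the counts were scaled to this score is not given in the sources used here. TLR4-KO replicate 1 and TLR4-KO + EtOH replicate 1, both with 262 precursors above 0, had the same median above 0 (37.4). The values therefore do not separate a change of amount from a shift of rank within a library. They give no depth, and no interval on counts was made.

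The study fitted a count model with 1 factor for the groups. As the values are not counts, limma 3.58.1 (R 4.3.3; lmFit, contrasts.fit, eBayes) was applied to the values without further scaling, in a fit of 4 group means over all 12 libraries. The 6 contrasts were each adjusted by Benjamini-Hochberg over 589 precursors at a threshold of 0.05. For single members, differences of means were also tested by two-sided exact permutation (scipy 1.17.1). The script was tested on simulated data first. Members and marker lists were chosen with earlier results of these data known. Beyond the members, the named precursors are the 5 of at least 6 libraries above 0 with the highest Pearson r to the mean of the members above 0 in at least 3 libraries, those with a member's seed, and members of the marker lists that a sentence needed. mmu-mir-351, mmu-mir-2137 and mmu-mir-6952 were named after their values were seen. Positions and sequences came from GENCODE M21 and RefSeq GRCm38.p6. Replicate numbers come from the labels, and p-values measure the spread between pools.

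Alternatives were quantile normalization, centring on miR-181a and miR-181b, only precursors above 0 in at least 3 libraries, values under 10 raised to 10, the 2 groups alone, the replicate number as a block, eBayes with trend, robust eBayes, each library left out in turn and, chosen after seeing the data, the number of precursors above 0 as a covariate.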

Additional observations from a re-analysis of the deposited data

Results flagged for a closer look

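The alcohol effect differed between the genotypes by an unadjusted limma p under 0.05, or with every library on the opposite side of its control mean, for 4 members. This rule was applied to the members only, so the share of all precursors that meet it is not known. By the unadjusted limma p alone, 3 of 7 members were higher, against 6.79% of all precursors. The alcohol effect in TLR4-KO less that in WT was 40.2 for mmu-mir-182 (SE 14.3, limma adjusted p = 0.315). It was 31.5 for mmu-mir-183 (SE 13.9, limma adjusted p = 0.394), whose unadjusted p missed 0.05. In both of these miRNAs, each WT + EtOH library was below the WT mean and each TLR4-KO + EtOH library above the TLR4-KO mean. It was 17.0 for mmu-mir-96 (SE 3.41, limma adjusted p = 0.0553), which is at 0 in both TLR4-KO groups, so that only the WT groups give it a value. It was 15.6 for mmu-mir-200b (SE 6.71, limma adjusted p = 0.382), which is at 0 in both alcohol groups and lower in TLR4-KO than in WT on average. None of the 4 passed the adjusted threshold, and without WT + EtOH replicate 3 the value was 28.5 for mmu-mir-182 and 18.7 for mmu-mir-183.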

How the results depend on the processing

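limma called 1 member (mmu-mir-96) in each of the 3 comparisons with WT and 0 in the other 3 contrasts. With values under 10 raised to 10 it called 0 in each comparison with WT, since this brings the libraries listed at 0 nearer to the WT values of mmu-mir-96. With the 2 groups alone it called 0 for WT + EtOH and 0 for TLR4-KO against WT. For TLR4-KO + EtOH it called mmu-mir-200a in place of mmu-mir-96, among 18 of all precursors. Another alternative kept only precursors above 0 in at least 3 libraries, which leaves fewer tests. mmu-mir-96 passes this filter through WT alone, and mmu-mir-200b would not pass it without the WT libraries. The calls of both are therefore no support here. limma then called 3 members for WT + EtOH (mmu-mir-200a and mmu-mir-200b beside mmu-mir-96) and 2 for TLR4-KO (with mmu-mir-182). For TLR4-KO + EtOH it called 3, and for the difference of the alcohol effects 1 (mmu-mir-96). Over all precursors it called 21, 31, 9 and 13 in these contrasts. Centring gave 2 for WT + EtOH, eBayes with trend 1 for the difference of the effects, and the covariate, chosen after seeing the data, 2 for WT + EtOH, 3 for TLR4-KO + EtOH and 1 for the difference of the effects. Over all precursors, centring called 15 for WT + EtOH and eBayes with trend 10 for the difference of the effects. The covariate called 58, 48 and 59 for WT + EtOH, TLR4-KO + EtOH and the difference of the effects, against 10, 11 and 7 in the main fit. Leaving out each library gave 1 to 2 for WT + EtOH (2 without WT replicate 1), 1 to 3 for TLR4-KO (2 without WT replicate 1, 3 without WT + EtOH replicate 3), 1 to 3 for TLR4-KO + EtOH and 0 to 1 for the difference of the effects. Except where said, the cause was not tested.

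The difference TLR4-KO + EtOH minus WT + EtOH of mmu-mir-183 (0.507) turned to -0.682 with centring, -0.994 with the covariate and -12.3 without WT + EtOH replicate 3 (-12.3 to 9.99 over the libraries left out), and that of mmu-mir-182 (3.70) to -7.96 without that library (-7.96 to 13.6). Over the table, the numbers called against WT were 15 (TLR4-KO), 10 (WT + EtOH) and 11 (TLR4-KO + EtOH), and ran from 12 to 65, 6 to 58 and 5 to 48 over the 9 alternatives, the highest with the covariate, and from 11 to 22, 4 to 18 and 7 to 17 over the 12 libraries left out. For the difference of the effects the number was 7, with 3 to 59 and 2 to 15.

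The main fit did not take the replicate numbers to pair the samples. Same-numbered libraries had correlations of deviations from -0.109 to 0.153 (median 0.113), with 10 of 18 over 0.1. Those of libraries with different numbers ran from -0.286 to 0.246 (median -0.0376). Of 12 libraries, 8 correlated best with their own number. What libraries of the same number have in common was not tested. With the replicate block limma called 1 member in each comparison with WT, with adjusted p of 0.0272, 0.0148 and 0.0262 for mmu-mir-96 (WT + EtOH, TLR4-KO, TLR4-KO + EtOH). Over all precursors it called 13 in place of 10, 24 in place of 15 and 19 in place of 11 in these comparisons. For the difference of the effects it called 3 in place of 7.

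The deposited values hold no depth, so that low values such as those of mmu-mir-96, mmu-mir-141 and the miR-200b locus cannot be given a counting error, and 3 pools a group allow no exact p under 0.1.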
